A study of Mus musculus with 12 samples.

Results

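Ribosomal protein genes were compared between 4 fibroblast populations sorted from newborn mouse skin. The cytosolic class was taken from symbols that open with Rpl or Rps, with or without a p, and go on with a number and at most 1 of the letters a, x or l. The mitochondrial class was taken from symbols that open with Mrpl or Mrps and go on with a number. Of 17097 genes tested, 66 were cytosolic (43 of the large and 23 of the small subunit) and 73 were mitochondrial (46 large and 27 small). A further 14 cytosolic and 5 mitochondrial RefSeq genes that match the rule had no probe set of their own and were not analysed here. The rule reads symbols alone, but the classes were chosen with earlier results of these data known. Where a gene had several probe sets, the one with the highest mean over all arrays was read.

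The cells came from the skin of 3 female littermates aged 2 days, of a strain, genotype and treatment not given in the sources used here. Per the labels' protocols, tissue beneath the dermis was taken off, and the sorted cells carried Pdgfra and CD34, without CD45, CD117, CD31 or EpCam. Each animal gave 4 samples: CD26+ papillary cells without Dlk1 and Sca1, Dlk1- Sca1+ cells without CD26, Dlk1+ Sca1+ cells without CD26, and Dlk1+ reticular cells without CD26 and Sca1. Both Sca1+ populations are called pre-adipogenic in the labels. Each sample held 4500 cells, and its RNA was amplified over 21 cycles before it was hybridised to 1 Affymetrix array, so that each population had 3 arrays.

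A ribosome is built from ribosomal RNA and many small proteins, and the proteins of each particle are needed together. Cytosolic ribosomes translate the messenger RNAs of nuclear genes. Mitochondrial ribosomes, whose proteins are also encoded in the nucleus, translate the few messenger RNAs of the mitochondrial genome, all for subunits of the respiratory chain and the ATP synthase. The collagen and other matrix proteins that dermal fibroblasts secrete are made on cytosolic ribosomes.

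Levels below are log2 RMA values and differences are log2 differences of population means, given with limma's standard error (SE). Calls were made where limma's p, adjusted by Benjamini-Hochberg over all 17097 genes, was under 0.05. The transcripts of some sorting genes were read first, and that of Sca1 was not read here. Dpp4, which encodes CD26, was at 10.18 to 10.97 in papillary cells and at 6.10 to 6.53 in the other populations. Dlk1 was at 12.82 to 13.04 in the Dlk1+ Sca1+ and reticular cells, at 11.18 to 11.54 in Dlk1- Sca1+ cells and at 9.82 to 10.10 in papillary cells, so its transcript was also read in cells sorted without the surface protein. Cd34 was at 9.78 to 10.35 on all arrays, and 6 fibroblast markers averaged 11.42 to 11.52 in papillary cells and 11.03 to 11.24 in the others. In each comparison of papillary cells, 2 of the 6 were called higher (33.3%), beside 13.1% to 14.1% of all genes. Signs of RNA quality were alike: the 3′ minus 5′ control difference lay between -0.46 and -0.39 for Actb and between -0.07 and 0.03 for Gapdh. Markers of other cells differed between the populations, and these lists are given beside the results. In sorted bulk samples, fewer cells of a type and less RNA per cell cannot be told apart.

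The classes differed in how far their members varied between the populations. Over all levels of signal, the mitochondrial class varied more than genes in general and the cytosolic class less; among genes of a like level, the mitochondrial range was close to that of other genes, as given with the levels below. The range of the 4 population means had a median of 0.39 over the mitochondrial and of 0.11 over the cytosolic genes, beside 0.25 over all genes. It was under 0.25 for 12 of 73 mitochondrial genes (16.4%) and 53 of 66 cytosolic genes (80.3%), beside 49.3% of all genes. It was above 0.5 for 20 mitochondrial (27.4%) and 2 cytosolic genes (3.03%), beside 25.3% of all genes, so here the mitochondrial share was close to that of all genes. A moderated F-test over the 4 populations called 46 mitochondrial genes (63%) and 8 cytosolic genes (12.1%), where 35.7% of all genes were called. With the animal as a block, the test called 13 cytosolic genes. Without replicate 3 of the Dlk1- Sca1+ cells, it called 5. The share of all genes called by the F-test is not given for these fits or for the alternative settings reported later.

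The classes lie on different stretches of the array's scale. Signals of different probe sets do not rank transcripts, and the levels are given to show where on the scale each class was read. The mitochondrial genes lay between 5.26 and 10.44 with a median of 8.32, and the cytosolic genes between 5.39 and 13.05 with a median of 11.96. No value in the table exceeded 13.27, and 55 of 66 cytosolic genes had a mean of at least 11. Genes outside both classes with means of 8 to 10 were called by the F-test in 60.4% of cases, and 34 of 47 mitochondrial genes on that stretch (72.3%) were called. At 6 to 8 the shares were 40.9% of mitochondrial genes (9 of 22) and 39.6% of the others. The median range of means was 0.42 for both the mitochondrial and the other genes at 8 to 10, and 0.33 against 0.32 at 6 to 8. In Dlk1- Sca1+ against reticular cells alone, 63.8% of mitochondrial and 32.2% of other genes at 8 to 10 were called, and 40.9% and 19.1% at 6 to 8. Of 7 cytosolic genes with means of 10 to 11, 6 were called (85.7%), beside 66.5% of the other genes there, so that most of the 8 cytosolic calls lay below the top of the scale. Genes outside both classes with means of 11 to 12 were called in 58.4% of cases, and 1 of 26 cytosolic genes there (3.85%) was called. Above a mean of 12, 33% of the other genes and 0 of 29 cytosolic genes were called. A part of the scale's upper limit in the small cytosolic differences was not tested.

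**Figure D1:**
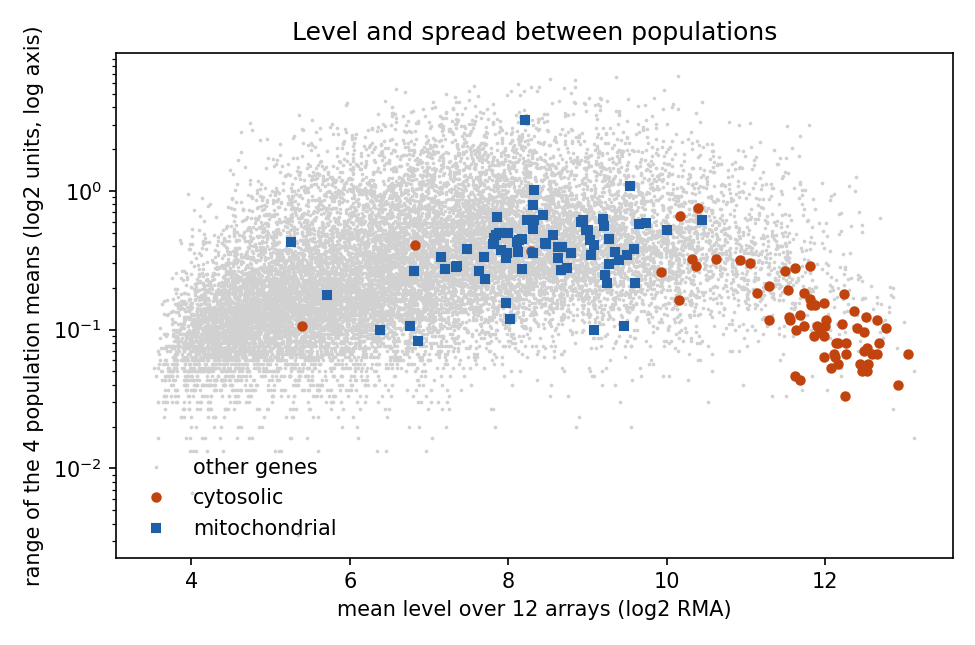
Each point is 1 gene, with its mean level over 12 arrays (log2 RMA) on the x axis and the range of its 4 population means (log2 units, log axis) on the y axis. Most cytosolic genes sit at levels of at least 11 with a range under 0.25, and most mitochondrial genes sit in the middle of the scale with a larger range.

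The mitochondrial class was lowest in reticular cells on every array. To set the arrays side by side, each gene was expressed as its deviation from its own mean over 12 arrays, and the median over the class was taken per array. The mitochondrial medians were 0.00 to 0.07 in papillary, 0.11 to 0.17 in Dlk1- Sca1+, -0.03 to 0.02 in Dlk1+ Sca1+ and -0.24 to -0.16 in reticular cells. The reticular arrays did not overlap those of any other population, and the Dlk1- Sca1+ arrays were above all others. The medians over all genes were within -0.06 and 0.06 on all arrays. The cytosolic medians were -0.03 to -0.01 in papillary, 0.03 to 0.08 in Dlk1- Sca1+, -0.06 to 0.02 in Dlk1+ Sca1+ and -0.04 to 0.00 in reticular cells. Here too the Dlk1- Sca1+ arrays were the highest, by less than 0.1, and the other populations overlapped.

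**Figure D2:**
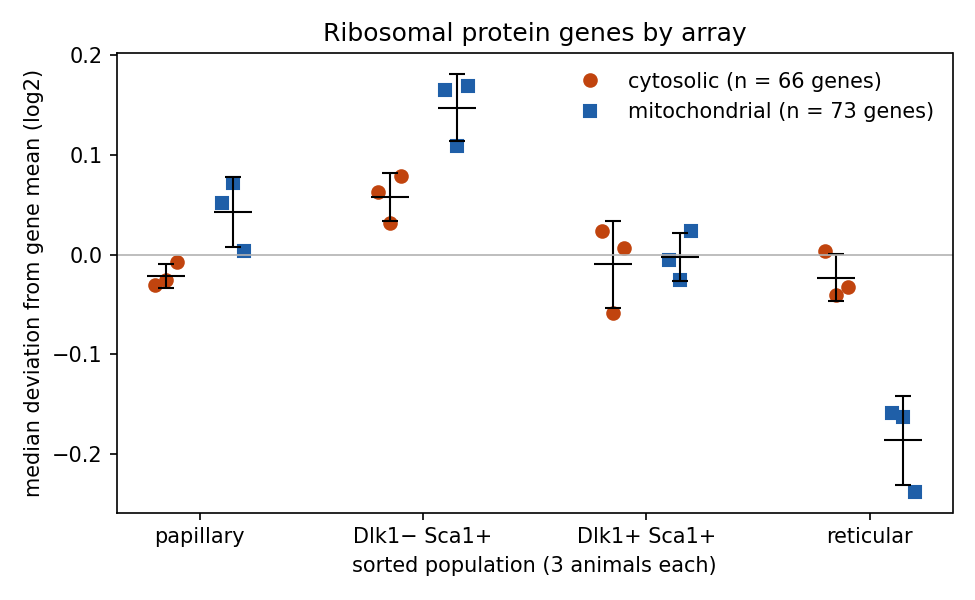
The median deviation from each gene's mean (log2, y axis) is shown for each array of the 4 sorted populations (x axis), with the mean and SD over 3 animals in black. Mitochondrial medians are -0.24 to -0.16 in reticular cells and at least -0.03 elsewhere, while cytosolic medians stay between -0.06 and 0.08.

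Gene by gene, 55 of 73 mitochondrial genes (75.3%) had their lowest population mean in reticular cells, beside 21.7% of all genes. The highest mean was in Dlk1- Sca1+ cells for 42 (57.5%) and in papillary cells for 25 (34.2%), beside 24.7% and 32.4% of all genes. Both subunits showed it. The Dlk1- Sca1+ minus reticular difference had a median of 0.34 over the large and of 0.32 over the small subunit genes, and it was above 0 for 41 of 46 large and 27 of 27 small subunit genes. Of the cytosolic genes, 47 of 66 (71.2%) had their highest mean in Dlk1- Sca1+ cells.

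In Dlk1- Sca1+ against reticular cells, 41 mitochondrial genes rose and 1 fell, and 8 cytosolic genes rose and 0 fell. Over all genes, 18.2% were called, 9.36% higher and 8.8% lower. The median difference was 0.32 over the mitochondrial class (middle 50%, 0.17 to 0.46), 0.08 over the cytosolic class and -0.01 over all genes. All 3 Dlk1- Sca1+ values lay above all 3 reticular values for 54 mitochondrial and 28 cytosolic genes, and this held for 14.5% of all genes. They lay below for 3 mitochondrial and 1 cytosolic genes, beside 14.6% of all genes. With the animal as a block, 49 mitochondrial (67.1%) and 13 cytosolic genes were called, beside 24% of all genes. With 1 animal left out, 14 to 29 mitochondrial genes were called, and the share of all genes called was then 9.83% to 13.3%.

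Mrpl36, a large subunit protein with a bacterial counterpart, was at 8.78, 8.57 and 8.60 in Dlk1- Sca1+ cells and at 8.08, 7.51 and 7.97 in reticular cells. All of the first lay above all of the second, with a difference of 0.80 ± 0.13 (SE, n = 3 each, limma adjusted p = 0.000705). Mrpl52, a large subunit protein found in mitochondrial but not in bacterial ribosomes, was at 10.79, 10.61 and 10.80 in Dlk1- Sca1+ cells and at 10.14, 10.08 and 10.14 in reticular cells. The groups were apart by more than the spread within either, and the difference was 0.61 ± 0.08 (limma adjusted p = 0.000177). Mrpl43, of the same kind, was at 8.18, 8.10 and 8.11 in Dlk1- Sca1+ cells and at 7.40, 7.49 and 7.56 in reticular cells. Its groups did not overlap, and the difference was 0.65 ± 0.10 (limma adjusted p = 0.000677).

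In papillary against reticular cells, 33 mitochondrial genes rose and 3 fell, and 2 cytosolic genes rose and 1 fell. Over all genes, 27.5% were called, 13.9% higher and 13.6% lower. The median difference was 0.26 over the mitochondrial class (middle 50%, 0.07 to 0.39), 0.01 over the cytosolic class and -0.01 over all genes. All 3 papillary values lay above all 3 reticular values for 40 mitochondrial and 7 cytosolic genes, beside 19% of all genes, and below them for 4 and 6, beside 18.7% of all genes. With 1 animal left out, 20 to 26 mitochondrial genes were called, and the share of all genes called was then 19% to 23.1%.

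Mrpl23, a large subunit protein whose bacterial counterpart sits by the exit of the nascent chain, had the largest rise of the class. It was at 10.08, 9.98 and 10.08 in papillary cells, at 9.77, 9.74 and 9.82 in Dlk1- Sca1+ cells, at 9.32, 9.26 and 9.51 in Dlk1+ Sca1+ cells and at 9.21, 8.72 and 8.95 in reticular cells. The 4 populations did not overlap in this order. The papillary minus reticular difference was 1.09 ± 0.11 (SE, n = 3 each, limma adjusted p = 7.41e-06), a 2.12-fold difference. Dlk1- Sca1+ minus reticular was 0.82 ± 0.11 (limma adjusted p = 0.000185), and Dlk1+ Sca1+ minus reticular was 0.40 ± 0.11 (limma adjusted p = 0.0403). The last call held in 2 of the 12 fits that left out 1 array. Its neighbours in the RefSeq table on chromosome 7 include Tnnt3 and the imprinted gene H19.

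Mrpl18, a large subunit protein with a bacterial counterpart, was at 9.16, 9.33 and 9.26 in papillary cells, against 8.67, 8.69 and 8.54 in reticular cells. Its groups did not overlap, and the difference was 0.62 ± 0.07 (limma adjusted p = 2.26e-05). Mrps21, a small subunit protein with a bacterial counterpart, was at 8.55, 8.40 and 8.51 in papillary cells, against 7.70, 7.86 and 8.04 in reticular cells. It was higher in all 3 papillary samples, by 0.62 ± 0.12 (limma adjusted p = 0.00117). Mrpl33 (0.59 ± 0.11), Mrpl42 (0.49 ± 0.09) and the small subunit gene Mrps2 (0.39 ± 0.07) were also called higher in papillary than in reticular cells, each without overlap between the groups.

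In Dlk1+ Sca1+ against reticular cells, 5 mitochondrial genes rose and 0 fell, and 2 cytosolic genes rose and 0 fell, where 8.43% of all genes were called, 4.06% higher and 4.37% lower. All 3 Dlk1+ Sca1+ values lay above all 3 reticular values for 34 mitochondrial and 4 cytosolic genes, beside 10.7% of all genes, and below them for 1 and 2, beside 10.9% of all genes. The 5 were Mrpl14, Mrpl23, Mrpl57, Mrps10 and Mrps24, with differences of 0.28 to 0.40, and Mrpl14 and Mrps10 are named here after their values were seen. The median over the mitochondrial class was 0.21, with 66 of 73 genes above 0. The animal as a block gave 20 mitochondrial genes higher (27.4%) and 0 lower, where 12.5% of all genes were called. With 1 array left out the count was 0 to 8: it was 0 without replicate 3 of either population, 2 without replicate 1 of the Dlk1+ Sca1+ cells or replicate 2 of the reticular cells, and 8 without replicate 1 of the reticular cells. It was 3 without replicate 2 of the Dlk1+ Sca1+ or of the papillary cells, or without replicate 3 of the Dlk1- Sca1+ cells. In the fits named here, 5.31% to 8.12% of all genes were called.

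Mrpl57, a large subunit protein, was at 9.10, 8.88 and 8.94 in Dlk1+ Sca1+ cells and at 8.70, 8.47 and 8.57 in reticular cells. Its groups did not overlap, and the difference was 0.39 ± 0.10 (limma adjusted p = 0.0279). Mrps24 was at 7.96, 7.78 and 7.95 in Dlk1+ Sca1+ cells and at 7.66, 7.47 and 7.54 in reticular cells. It was higher in all 3 Dlk1+ Sca1+ samples, by 0.34 ± 0.08 (limma adjusted p = 0.0254). Both calls were lost without replicate 1 or 3 of the Dlk1+ Sca1+ cells and without replicate 2 or 3 of the reticular cells.

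**Figure D3:**
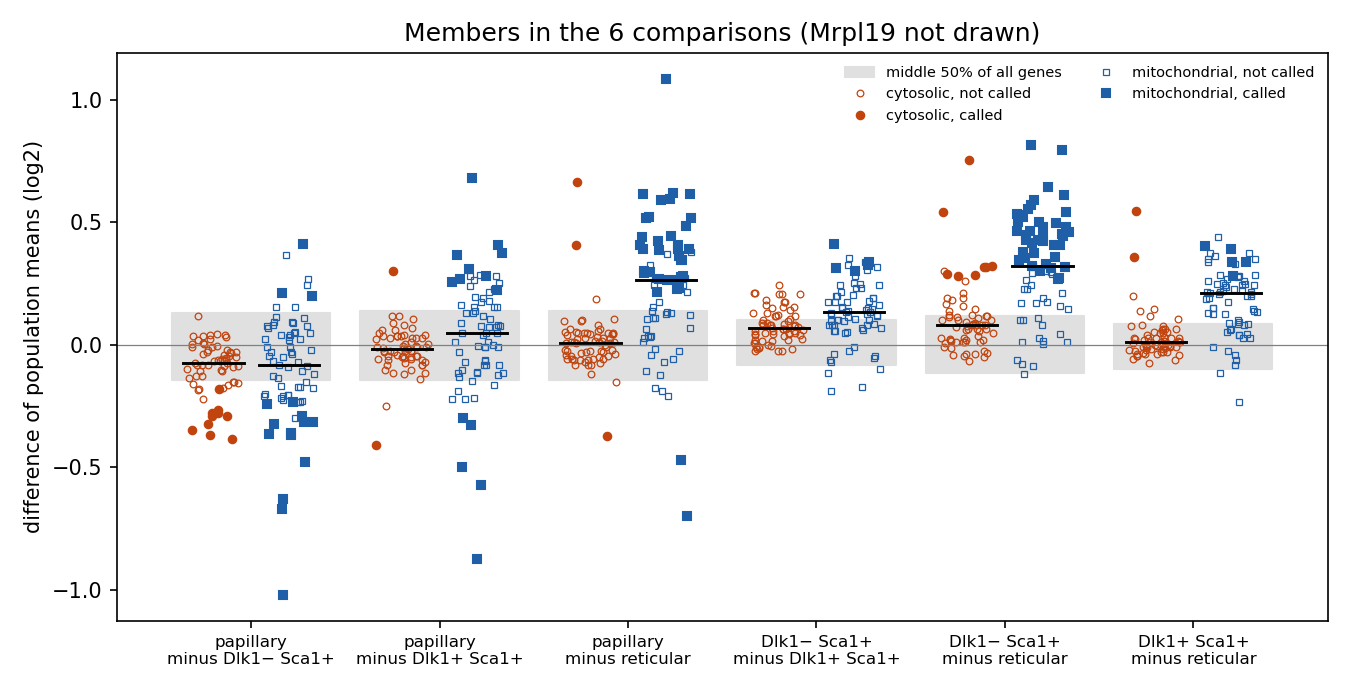
The log2 difference of population means (y axis) is shown for each member in the 6 comparisons (x axis), filled where called, with the class median as a black line and the middle 50% of all genes in grey. The mitochondrial medians against reticular cells are 0.26, 0.32 and 0.21, the cytosolic medians lie between -0.07 and 0.08, and Mrpl19 is counted in the medians but not drawn.

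Lower calls in reticular cells against both papillary and Dlk1- Sca1+ cells were made for 27 of 73 mitochondrial genes (37%) and for 2 of 66 cytosolic genes (3.03%), Rpl39l and Rps27l, beside 3.68% of all genes. Both comparisons share the reticular arrays. Of the 27, 20 belong to the large and 7 to the small subunit. Mrpl17, Mrpl54 and Mrpl58 are among them, although another probe set of each was called the opposite way in a comparison that defines the set. The range of population means was largest in Mrpl23, Mrpl36 and Mrpl43. Lower calls in reticular cells against each of the other populations were made for 5 mitochondrial genes (6.85%) and the same 2 cytosolic genes (3.03%), beside 1.06% of all genes.

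**Figure D4:**
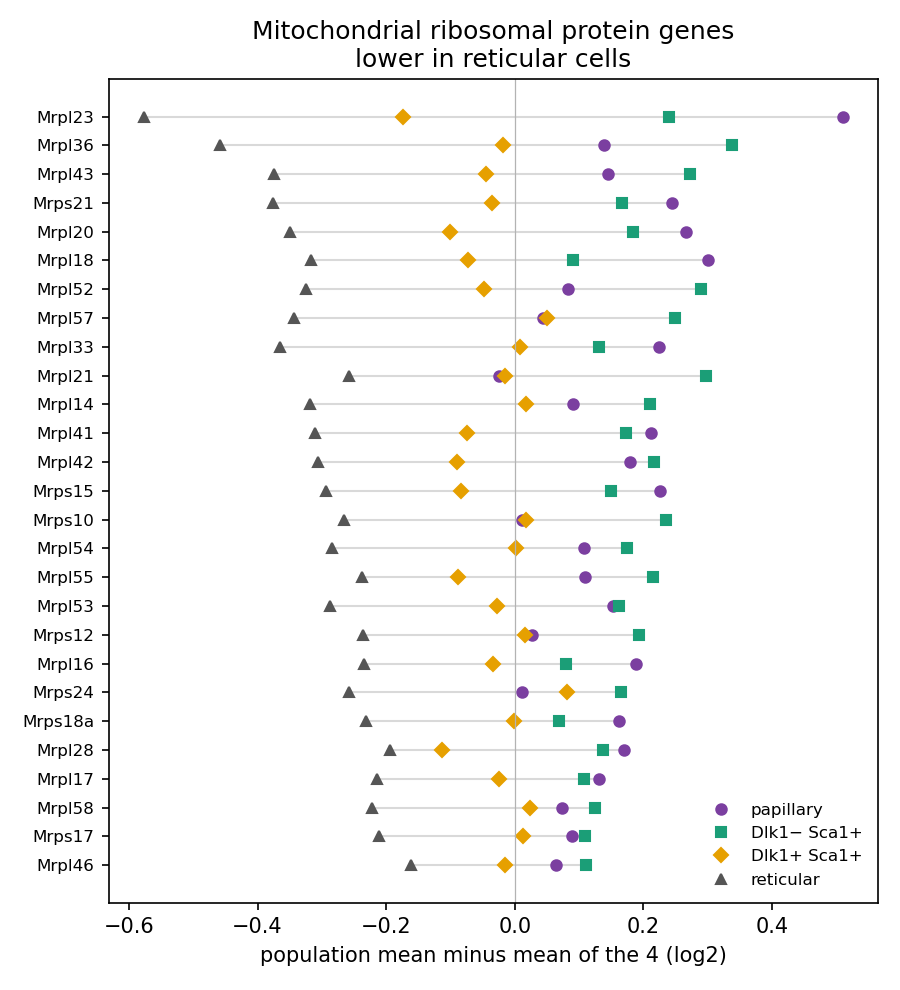
For the 27 mitochondrial ribosomal protein genes called lower in reticular than in papillary and in Dlk1- Sca1+ cells, each population mean is shown relative to the mean of the 4 (log2, x axis), ordered by gene (y axis). The reticular mean is the lowest in each gene by the choice of the genes, and the range is largest in Mrpl23, Mrpl36 and Mrpl43. Each gene is drawn on its brightest probe set, also Mrpl17, Mrpl54 and Mrpl58, where another probe set was called the opposite way.

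Some markers of other cells moved with these comparisons. The mean level of 5 mural markers was 6.47 to 6.55 in papillary, 7.36 to 7.60 in Dlk1- Sca1+, 7.63 to 8.70 in Dlk1+ Sca1+ and 8.13 to 9.31 in reticular cells. That of 8 skeletal muscle markers was 5.62 to 5.67, 5.59 to 5.72, 6.0 to 6.04 and 6.30 to 6.54 in the same order. Of the 8 muscle markers, 3 were called lower in papillary than in reticular cells (37.5%), beside 13.6% of all genes, and 5 were not called. The median difference of this list was -0.175. Acta1, skeletal muscle actin, differed by far more than that median: it was at 8.57, 8.20 and 7.71 in reticular cells and at 5.03 to 5.18 in papillary cells. Keratinocyte markers averaged 6.44 to 7.89 in papillary, 7.56 to 10.14 in Dlk1- Sca1+, 7.36 to 8.86 in Dlk1+ Sca1+ and 6.65 to 8.72 in reticular cells, so their ranges overlapped. Melanocyte and Schwann markers reached 8.22 in Dlk1- Sca1+ cells and 6.13 to 7.11 at most elsewhere. The 4 mast cell markers averaged 4.355 to 5.495 in Dlk1- Sca1+ cells and 4.28 to 4.46 elsewhere. The 2 erythroid markers averaged 6.63 to 6.77 in papillary, 6.575 to 7.92 in Dlk1- Sca1+, 6.94 to 8.235 in Dlk1+ Sca1+ and 6.73 to 7.92 in reticular cells. Endothelial markers averaged 5.73 to 5.88 in papillary cells and 5.89 to 6.78 in the others. Of the 7, 2 were called lower in papillary than in reticular cells (28.6%), beside 13.6% of all genes. Immune markers averaged 5.47 to 5.65 in papillary cells and 5.62 to 5.82 in the others. Of the 7, 1 was called lower in papillary than in reticular cells (14.3%), near the 13.6% of all genes. Cell cycle markers averaged 8.98 to 9.22 in papillary cells and 7.68 to 8.26 in the others. The part of any of these in the ribosomal protein differences was not tested.

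The promoters of the members were read for letters that they share. RefSeq windows of 300 bases, 250 before and 50 after the start (GRCm38.p6), were found for 65 mitochondrial genes (71 windows), 52 cytosolic genes (63 windows) and 13605 of all genes tested (17065 windows). The core CGGAAG of sites bound by ETS factors such as GABP, searched on both strands, stood in 52.1% of mitochondrial, 63.5% of cytosolic and 23.7% of all windows. Of the 26 windows of genes called lower in reticular cells, 65.4% held it, and of the other 45 mitochondrial windows 44.4%. A run of at least 6 pyrimidines that opens with C within 5 bases of the start stood in 4.23% of mitochondrial, 36.5% of cytosolic and 10.4% of all windows. Such a start is the mark of messenger RNAs whose translation follows mTOR signalling, of which the cytosolic ribosomal proteins are the textbook class. The sequence ATGGCGG was in 16.9%, 20.6% and 5.95% of windows in the same order (both strands), and its last letters can overlap a match to the ETS core. The E-box CACGTG, bound by Myc, was in 8.45%, 12.7% and 8.69%. GCATGCG was in 9.86%, 4.76% and 5.03%, and TATAA was in 14.1%, 23.8% and 17.9%, all on both strands. Between the windows of genes called lower in reticular cells and the other mitochondrial windows, TATAA stood in 30.8% against 4.44%, ATGGCGG in 7.69% against 22.2%, GCATGCG in 7.69% against 11.1%, CACGTG in 7.69% against 8.89% and the pyrimidine run in 0% against 6.67%. These splits rest on few windows and were not tested. A match is a description of the letters and not a shown binding site.

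Windows of 100 bases, from 80 before the start to 20 from it, are printed for 3 mitochondrial genes lower in reticular cells, with each CGGAAG or its reverse complement CTTCCG in capitals, and for 3 cytosolic genes with the pyrimidine run in capitals. They were picked for holding a match: 11 of the 26 such shorter windows of the reticular-low genes hold CGGAAG, and those of Mrpl23 and Mrpl36 do not. Mrpl43 is at chr19:45006423-45006522 on the minus strand, Mrpl52 at chr14:54426829-54426928 on the plus strand and Mrps21 at chr3:95871495-95871594 on the minus strand. Rps6 is at chr4:86857348-86857447 on the minus strand, Rps2 at chr17:24719983-24720082 on the plus strand and Rps26 at chr10:128626487-128626586 on the minus strand.
Mrpl43: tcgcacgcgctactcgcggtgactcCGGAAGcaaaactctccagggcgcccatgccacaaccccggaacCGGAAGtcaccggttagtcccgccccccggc
Mrpl52: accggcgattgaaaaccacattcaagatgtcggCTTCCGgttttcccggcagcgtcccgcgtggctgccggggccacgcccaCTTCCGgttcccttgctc
Mrps21: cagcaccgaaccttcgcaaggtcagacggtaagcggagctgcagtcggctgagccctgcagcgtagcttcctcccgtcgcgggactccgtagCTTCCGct
Rps6: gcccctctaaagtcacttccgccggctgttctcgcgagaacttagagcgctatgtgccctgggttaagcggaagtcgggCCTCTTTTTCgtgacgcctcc
Rps2: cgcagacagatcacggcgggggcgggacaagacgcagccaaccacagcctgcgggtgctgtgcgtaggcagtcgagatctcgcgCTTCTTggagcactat
Rps26: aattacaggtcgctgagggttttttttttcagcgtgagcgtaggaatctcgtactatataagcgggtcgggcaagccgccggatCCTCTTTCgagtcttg

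In papillary against Dlk1- Sca1+ cells, 3 mitochondrial genes rose and 14 fell, and 0 cytosolic genes rose and 10 fell. Over all genes, 26.4% were called, 13.1% higher and 13.3% lower. The median difference was -0.08 over the mitochondrial class, -0.07 over the cytosolic class and -0.00 over all genes. All 3 papillary values lay below all 3 Dlk1- Sca1+ values for 23 mitochondrial and 33 cytosolic genes, and this held for 18.9% of all genes. They lay above for 8 mitochondrial and 0 cytosolic genes, beside 19% of all genes. Without replicate 1 or without replicate 3 of the Dlk1- Sca1+ cells, 11 mitochondrial genes were called (15.1%), beside 23.4% and 23.1% of all genes. The cytosolic count was 5 without replicate 1 or 2 of the papillary cells, 6 without replicate 3 of the Dlk1- Sca1+ cells and 2 without any 1 animal. Of all genes, 22% and 22.8%, 23.1%, and 18.2% to 20.7% were called in these fits, in that order.

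Mrps6, a small subunit protein with a bacterial counterpart, had the largest fall in papillary cells apart from Mrpl19. It was at 7.68, 7.46 and 7.88 in papillary cells, at 8.73, 8.75 and 8.60 in Dlk1- Sca1+ cells, at 8.50, 8.65 and 8.49 in Dlk1+ Sca1+ cells and at 8.20, 8.61 and 8.30 in reticular cells. Each papillary value was below every other value. The differences were -1.02 ± 0.12, -0.87 ± 0.12 and -0.70 ± 0.12 against the 3 others (limma adjusted p = 2.62e-05, 9.67e-05 and 0.000659). The annotation gives 3 further probe sets jointly to Mrps6 and Slc5a3, a transporter gene that overlaps it, and these were left out of the class. One of them was at 8.88, 8.91 and 8.98 in papillary cells and at 9.50 to 10.28 in the others, also lower in papillary cells.

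Mrpl50, a large subunit protein without a bacterial counterpart, was at 8.88, 8.84 and 8.69 in papillary cells and at 9.52, 9.50 and 9.28 in Dlk1- Sca1+ cells. All papillary values were the lower ones, with a difference of -0.63 ± 0.14 (limma adjusted p = 0.0036). Against reticular cells, at 9.37, 9.43 and 9.02, it was -0.47 ± 0.14 (limma adjusted p = 0.0205), which without replicate 3 of the papillary cells or replicate 1 or 2 of the reticular cells was no longer called. Mrpl38, also of the large subunit, was at 8.07, 8.20 and 7.96 in papillary cells and at 8.58, 8.92 and 8.74 in Dlk1- Sca1+ cells. These groups did not overlap, and the difference was -0.67 ± 0.14 (limma adjusted p = 0.00336).

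Mrpl49, a large subunit protein, ran the other way. It was at 8.74, 8.88 and 8.65 in papillary cells and at 8.40, 8.38 and 8.25 in Dlk1- Sca1+ cells. All papillary values were higher, by 0.41 ± 0.09 (limma adjusted p = 0.00311). Mrps2 (0.20 ± 0.07, limma adjusted p = 0.0438) and Mrpl18 (0.21 ± 0.07, limma adjusted p = 0.0451) were the other rises in papillary against Dlk1- Sca1+ cells, and both calls were lost in 8 of the 12 fits that left out 1 array, including each of the Dlk1- Sca1+ arrays.

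Mrpl19 stood apart and its probe sets disagreed. Its brightest probe set was at 6.11, 6.20 and 5.77 in papillary cells, at 8.40, 8.64 and 8.51 in Dlk1- Sca1+ cells, at 9.24, 9.41 and 9.16 in Dlk1+ Sca1+ cells and at 8.88, 9.38 and 8.87 in reticular cells. On this probe set papillary minus reticular was -3.02 ± 0.15 (limma adjusted p = 8.67e-09), where the next largest difference of a member in this comparison was that of Mrpl23. The second probe set by level was at 7.76, 7.64 and 7.58 in papillary cells, against 7.27, 7.28 and 7.37 in reticular cells, the opposite direction, with a difference of 0.35 ± 0.08. The dimmest was at 6.09, 6.42 and 5.52 in papillary cells, against 5.48, 5.40 and 5.40 in reticular cells, and the third was within 5.54 and 5.93 in these populations. The direction of Mrpl19 therefore cannot be given from these probe sets. Without it the medians over the mitochondrial class against reticular cells were 0.265 for papillary, 0.325 for Dlk1- Sca1+ and 0.21 for Dlk1+ Sca1+ cells.

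**Figure D5:**
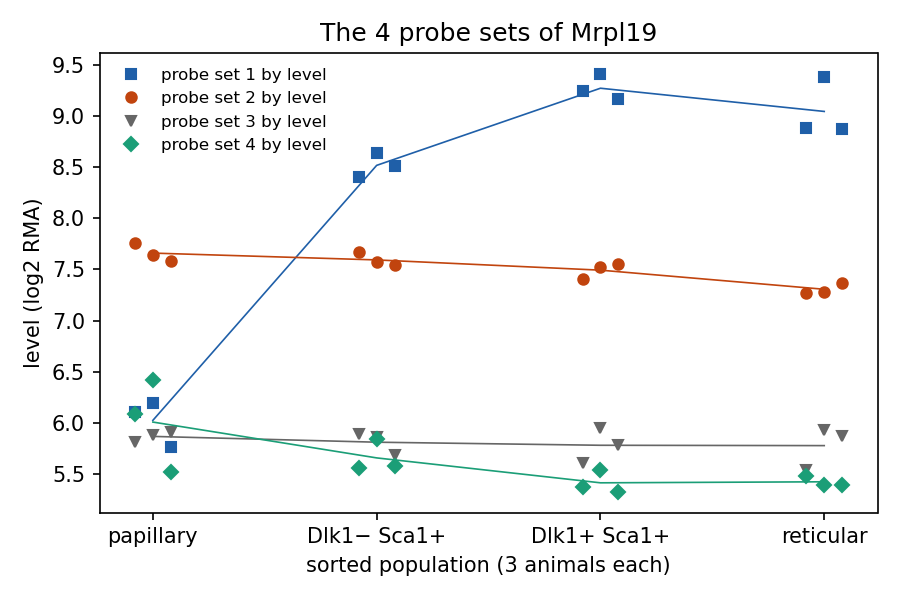
The level (log2 RMA, y axis) of each of the 4 probe sets of Mrpl19 is shown on every array of the 4 populations (x axis), with lines through the population means. The brightest probe set is about 3 log2 units lower in papillary than in reticular cells, while the second and the dimmest are higher in papillary cells.

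Other members had probe sets that disagreed as well. Another probe set was called in the opposite direction for Mrpl54 and Mrpl58 in papillary against reticular cells, for Mrpl17 and Mrpl58 in Dlk1- Sca1+ against reticular cells, and for Rps13 in papillary against Dlk1- Sca1+ cells. Of the 21 mitochondrial genes with more than 1 probe set that were called in Dlk1- Sca1+ against reticular cells, 6 had another one called the same way, and in 12 all others had the same sign. In papillary against reticular cells these numbers were 6 and 10 of 19.

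In papillary against Dlk1+ Sca1+ cells, 9 mitochondrial genes rose and 6 fell, and 1 cytosolic gene rose and 1 fell, where 28% of all genes were called, 14.1% higher and 13.9% lower. All 3 papillary values lay above all 3 Dlk1+ Sca1+ values for 21 mitochondrial and 5 cytosolic genes (20.2% of all genes) and below them for 9 and 9 (20% of all genes). The median was 0.05 over the mitochondrial class and -0.02 over the cytosolic class. The largest rise was that of Mrpl23 (0.68 ± 0.11, limma adjusted p = 0.000361), followed by Mrpl49 (0.41 ± 0.09, limma adjusted p = 0.00324). The cytosolic calls were Rps27l, higher, and Rps15a, lower: none was left without replicate 2 of either population, and 1 without replicate 1 of the papillary cells or replicate 3 of either population. In these fits, 23.7% to 25.1% of all genes were called.

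In Dlk1- Sca1+ against Dlk1+ Sca1+ cells, 5 mitochondrial genes rose and 1 fell, and no cytosolic gene was called by limma, where 7.36% of all genes were called, 3.23% higher and 4.13% lower. All 3 Dlk1- Sca1+ values lay above all 3 Dlk1+ Sca1+ values for 21 mitochondrial and 21 cytosolic genes, beside 10.8% of all genes, and below them for 1 and 0, beside 11% of all genes. The rises were Mrpl15, Mrpl21, Mrpl23, Mrpl52 and Mrpl55, of which Mrpl21 and Mrpl55 are named here after their values were seen. The call of Mrpl23 (limma adjusted p = 0.0386) held in 3 of the 12 fits that left out 1 array. That of Mrpl52 (limma adjusted p = 0.0244) held in 8 of them, and neither held in any fit that left out 1 animal. Of the cytosolic genes, 9 had an unadjusted p under 0.05. The median over the cytosolic class was 0.07 and that over the mitochondrial class 0.13, beside 0.01 over all genes. With the animal as a block, 10 mitochondrial (13.7%) and 3 cytosolic genes were called, beside 11.1% of all genes. The mitochondrial count was 1 without replicate 1 of the Dlk1- Sca1+ cells, 2 without replicate 1 or 2 of the Dlk1+ Sca1+ cells and 3 without replicate 3 of the Dlk1- Sca1+ or replicate 2 of the papillary cells. In these fits, 5.33% to 6.79% of all genes were called.

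Mrpl15, a large subunit protein with a bacterial counterpart, was read on a dim probe set. It was at 5.61, 5.54 and 5.43 in Dlk1- Sca1+ cells, above 5.05 to 5.27 on every other array. Its second probe set, dimmer still, did not show this. There the means were 4.73 in papillary, 4.74 in Dlk1- Sca1+, 4.81 in Dlk1+ Sca1+ and 4.64 in reticular cells. Mrpl15, on its brightest probe set, and Mrpl21 were called higher in Dlk1- Sca1+ cells than in each other population, beside 1.54% of all genes. Mrpl15 lost its call against Dlk1+ Sca1+ cells (0.33 ± 0.07, limma adjusted p = 0.0133) without replicate 1 of the Dlk1- Sca1+ or replicate 3 of the Dlk1+ Sca1+ cells.

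Most cytosolic ribosomal protein genes were read at nearly the same level in all 4 populations. The 95% interval of the difference lay within 0.5 on either side of 0 for 62 to 66 of the 66 genes in each comparison. For the mitochondrial genes this held for 30 of 73 in Dlk1- Sca1+ against reticular cells and for 42 in papillary against reticular cells, and for 56 to 65 in the other 4 comparisons. Over all genes the share was 66.7% to 81.7%. Rps2, a small subunit protein, was at 13.02 to 13.05 in papillary, 13.06 to 13.12 in Dlk1- Sca1+, 13.05 to 13.06 in Dlk1+ Sca1+ and 13.00 to 13.04 in reticular cells. Rps6, the small subunit protein phosphorylated by the S6 kinases, was at 12.92 to 12.95, 12.91 to 12.98, 12.85 to 12.95 and 12.89 to 12.95 in the same order. Neither was called in any comparison, and both lie near the top of the scale.

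The stalk proteins recruit the translation factors to the ribosome. Rplp0 was at 12.34 to 12.49 in papillary, 12.35 to 12.55 in Dlk1- Sca1+, 12.40 to 12.53 in Dlk1+ Sca1+ and 12.36 to 12.53 in reticular cells, and Rplp1 was between 11.55 and 11.75 on all arrays. Neither was called in any comparison. Rplp2 was at 11.86, 11.65 and 11.84 in Dlk1- Sca1+ cells and at 11.58, 11.45 and 11.48 in reticular cells. Its groups did not overlap, and the difference was 0.28 ± 0.08 (limma adjusted p = 0.0352), a call lost without replicate 1 or 3 of the Dlk1- Sca1+ cells or replicate 2 or 3 of the reticular cells. Rps19, a small subunit protein mutated in Diamond-Blackfan anaemia in people, had a Dlk1- Sca1+ minus reticular difference of 0.26 ± 0.10 that was not called (limma adjusted p = 0.105), and it was called with the animal as a block (limma adjusted p = 0.0167). Rpl11, which can bind Mdm2 when ribosome assembly fails, was between 11.65 and 11.84 on all arrays on its brightest probe set and was not called in any comparison. With the mean over its probe sets it was called higher in papillary cells, by 0.45 against Dlk1+ Sca1+ cells and by 0.26 against reticular cells (limma adjusted p = 0.00121 and 0.0396), so its probe sets disagree.

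The largest cytosolic differences were those of 2 variant paralogs. Rpl39l, a paralog of Rpl39 known in mice from male germ cells, was at 10.30, 10.30 and 10.54 in papillary cells, at 10.56, 10.72 and 10.90 in Dlk1- Sca1+ cells, at 10.52, 10.38 and 10.66 in Dlk1+ Sca1+ cells and at 9.99, 9.83 and 10.10 in reticular cells. All reticular values were below all others. The differences from reticular cells were 0.41 ± 0.11 for papillary, 0.75 ± 0.11 for Dlk1- Sca1+ and 0.55 ± 0.11 for Dlk1+ Sca1+ cells (limma adjusted p = 0.0152, 0.000399 and 0.00844). The first was lost without replicate 3 of the papillary or replicate 2 of the reticular cells. Rpl39 itself was between 12.02 and 12.17 on all arrays and was not called. A part of Rpl39 transcripts in the Rpl39l signal was not tested.

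Rps27l, a close paralog of Rps27, was at 10.34, 10.49 and 10.49 in papillary cells, at 10.39, 10.22 and 10.35 in Dlk1- Sca1+ cells, at 10.17, 10 and 10.24 in Dlk1+ Sca1+ cells and at 9.91, 9.69 and 9.73 in reticular cells. All reticular values were again the lowest. The differences from reticular cells were 0.66 ± 0.09 for papillary, 0.54 ± 0.09 for Dlk1- Sca1+ and 0.36 ± 0.09 for Dlk1+ Sca1+ cells (limma adjusted p = 9.4e-05, 0.000929 and 0.0263). The last was lost without replicate 1 or 3 of the Dlk1+ Sca1+ cells or replicate 2 or 3 of the reticular cells. The gene was read on a probe set of a kind that can also match related transcripts, as were 23 of the 66 cytosolic and 6 of the 73 mitochondrial genes, and it was called the same way in a second probe set where it was called against reticular cells. Rpl3l, the heart and skeletal muscle paralog of Rpl3, was dim, at 5.20 to 5.57 on all arrays, and Rpl3 was between 12.10 and 12.22. Neither was called. Rpl5, Rps27, Rpl10l and Rps4l were not analysed here.

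Of the other cytosolic calls, 6 genes were the same in papillary and in reticular cells against Dlk1- Sca1+ cells: Rpl13, Rpl14, Rpl22, Rpl36, Rpl39l and Rps18, all higher in Dlk1- Sca1+ cells. They are 9.09% of the class, where 4.83% of all genes were called so. The call of Rpl14 against reticular cells (limma adjusted p = 0.047) was lost in 9 of the 12 fits that left out 1 array. Both comparisons share the Dlk1- Sca1+ arrays, and Rpl22, Rpl36 and Rps18 are named here after their values were seen. Rpl22, which in mice is needed for T cell development, was at 10.22, 10.16 and 10.21 in papillary cells and at 10.53, 10.53 and 10.50 in Dlk1- Sca1+ cells. Its groups were far apart for so small a spread, with a difference of -0.32 ± 0.06 (limma adjusted p = 0.00149). Rpl14 was at 8.05, 8.05 and 8.26 in papillary cells and at 8.55, 8.41 and 8.50 in Dlk1- Sca1+ cells, and its difference was -0.37 ± 0.10 (limma adjusted p = 0.0158), a call lost without replicate 1 of the Dlk1- Sca1+ cells or replicate 1 or 2 of the papillary cells. Rps15a, read in the middle of the scale, was at 6.38, 6.48 and 6.75 in papillary cells and at 6.78 to 7.15 elsewhere. It was lower in papillary cells than in each other population, by 0.37 to 0.41, but the F-test did not call it, and each of these calls was lost in 4 of the 12 fits that left out 1 array, including those without replicate 1 or 2 of the papillary cells.

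The genes that work with ribosomes were counted from lists chosen by role. Of 31 measured cytosolic translation factors, 1 rose and 9 fell in papillary against Dlk1- Sca1+ cells, and 10 rose and 1 fell in Dlk1- Sca1+ against reticular cells. These calls were 32.3% and 35.5% of the list, beside 26.4% and 18.2% of all genes. Eif3d, a subunit of the initiation factor that binds the small subunit, was among the falls in papillary against Dlk1- Sca1+ cells (-0.51, limma adjusted p = 0.0027). Of 53 measured genes of RNA polymerase I and ribosome assembly, 1 rose and 24 fell in papillary against Dlk1- Sca1+ cells, 7 rose and 11 fell in papillary against reticular cells, and 9 rose and 1 fell in Dlk1- Sca1+ against reticular cells. The shares called were 47.2%, 34% and 18.9%, beside 26.4%, 27.5% and 18.2% of all genes. The medians of this list were -0.24, -0.12 and 0.13, beside about 0 over all genes. With the animal as a block, 18 of them rose and 2 fell in Dlk1- Sca1+ against reticular cells, where 24% of all genes were called.

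Nhp2, a protein of the particles that guide pseudouridylation of ribosomal RNA, was at 8.86, 8.90 and 8.78 in papillary cells, at 9.08, 8.81 and 8.80 in Dlk1- Sca1+ cells, at 8.48, 8.33 and 8.31 in Dlk1+ Sca1+ cells and at 8.13, 7.99 and 7.82 in reticular cells. Reticular cells were lowest without overlap, and the papillary minus reticular difference was 0.87 ± 0.10 (limma adjusted p = 2.3e-05). Its partner Nop10 was called lower in reticular cells too, with differences of 0.41 ± 0.08 in papillary and 0.53 ± 0.08 in Dlk1- Sca1+ cells. Nop58, a core protein of the particles that guide methylation of ribosomal RNA, ran otherwise: it was at 10.39 to 10.44 in papillary cells and at 11.31 to 11.49 in reticular cells, a difference of -0.97 ± 0.07 (limma adjusted p = 2.3e-07). Nucleolin, Ncl, was lower in papillary than in reticular cells as well (-0.67 ± 0.08, limma adjusted p = 3.8e-05).

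Of 36 measured genes of mitochondrial translation and ribosome assembly, 4 rose and 1 fell in Dlk1- Sca1+ against reticular cells, 1 rose and 3 fell in papillary against reticular cells, and the medians were 0.12 and 0.02. The shares called, 13.9% and 11.1%, were below the 18.2% and 27.5% of all genes. Among the called genes, Tufm, the mitochondrial elongation factor that delivers the transfer RNA, was at 6.85, 6.79 and 7.16 in Dlk1- Sca1+ cells and at 6.46, 6.51 and 6.41 in reticular cells, a difference of 0.47 ± 0.10 (limma adjusted p = 0.0048). Gfm1, the translocation factor, was higher there as well (0.58 ± 0.13, limma adjusted p = 0.0079). Of the 4 measured mitochondrial ribosomal proteins with symbols outside the rule, 0 were called in any of the 6 comparisons by limma. With the animal as a block, 2 rose and 1 fell in Dlk1- Sca1+ against reticular cells, where 24% of all genes were called. One of the 4, Dap3 of the small subunit, had a difference of 0.24 ± 0.08 there without the block (limma adjusted p = 0.054).

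Of 25 measured regulators of ribosome production, 2 rose and 0 fell in Dlk1- Sca1+ against reticular cells, and 5 rose and 1 fell in papillary against reticular cells. These are 8% and 24% of the list, below the 18.2% and 27.5% of all genes. Ppargc1b, a coactivator of genes of mitochondrial biogenesis, was at 6.21, 6.0 and 6.21 in Dlk1- Sca1+ cells and at 5.11, 4.94 and 4.97 in reticular cells. The groups were far apart, with a difference of 1.13 ± 0.09 (limma adjusted p = 1.5e-06). Papillary cells were at 4.86 to 4.93, below both. Eif4ebp1, a repressor of cap-dependent translation that mTOR inactivates, was at 9.26 to 9.39 in papillary, 9.21 to 9.41 in Dlk1- Sca1+, 9.16 to 9.26 in Dlk1+ Sca1+ and 8.57 to 8.79 in reticular cells. It was lowest in reticular cells without overlap, by 0.60, 0.57 and 0.50 against the 3 others (limma adjusted p = 0.000133, 0.000385 and 0.00219). Mycn, a transcription factor of the Myc family, was higher in papillary than in reticular cells (0.49 ± 0.13, limma adjusted p = 0.0105). Gabpa, a subunit of the factor that binds the motif printed above, was at 6.62 to 6.96 on all arrays and was not called in any comparison.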

How the data were processed

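Total RNA of 12 samples was measured on Affymetrix arrays. The authors deposited log2 expression values. The submitters' processing notes name RMA and affy, with versions and a genome build not given in the sources used here. By its construction, RMA corrects background, normalizes arrays by quantiles and summarizes the probes of a probe set. As deposited, log2 values lay between 3.30 and 13.27, and array medians were 6.21 to 6.34, so no further normalization was applied. Amplification over many cycles can compress differences, and for arrays their number, 3 per population, limits the precision.

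Of 45141 probe sets, 104 array controls were left out. A platform annotation gave 28898 probe sets 1 gene symbol, 551 several and 15588 none. Entrez numbers of 28689 matched RefSeq, and 0 symbols changed. Among probe sets with 1 symbol, each gene was read on its brightest by mean, which left 17097 genes. A further 21 probe sets that name a member beside another gene were left out.

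A single limma 3.58.1 fit (R 4.3.3) held all 12 arrays and gave each population its own coefficient, with 8 residual and 4.475 prior degrees of freedom. All 6 pairs of populations were contrasted, two-sided, with Benjamini-Hochberg adjustment over all genes. The script was tested on simulated data. Fold differences are 2 to the power of the log2 difference.

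The labels give each array the number of its animal. Deviations from population means correlated across genes, which are not independent replicates. The mean r was 0.266 between arrays of the same animal (0.086 to 0.432, 17 of 18 pairs above 0.1), so the animal as a block was an alternative. Between animals it was -0.132, which adds nothing, since deviations from a population mean cancel out over the animals. The other alternatives were centred arrays, repeated quantile normalization, a minimum mean of 6, other choices of probe set, limma-trend, only the 6 arrays compared, and each animal or array left out.

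The members, the lists and the settings were chosen with earlier results of these data known. Named genes are, per class, the 3 largest called differences per comparison and direction, the 3 highest and 3 lowest levels, the 4 largest ranges, genes fixed by role and up to 3 called genes per list and comparison; others are pointed out in the text or given for their role.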

Additional observations from a re-analysis of the deposited data

How the results depend on the processing

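The rises of the mitochondrial class in Dlk1- Sca1+ and in papillary against reticular cells kept their direction under every alternative run. Over all fits that left out 1 array or 1 animal, the mitochondrial genes called numbered 14 to 43 in Dlk1- Sca1+ against reticular, 20 to 37 in papillary against reticular, 0 to 8 in Dlk1+ Sca1+ against reticular, 6 to 18 in papillary against Dlk1- Sca1+, 3 to 16 in papillary against Dlk1+ Sca1+ and 0 to 7 in Dlk1- Sca1+ against Dlk1+ Sca1+ cells, and 20 to 47 by the F-test. The cytosolic genes called numbered 2 to 8, 1 to 3, 0 to 2, 2 to 10, 0 to 3 and 0 to 0 in the same order, and 2 to 10 by the F-test. The mitochondrial medians were 0.30 to 0.37, 0.23 to 0.28, 0.17 to 0.23, -0.13 to -0.045, 0.02 to 0.08 and 0.11 to 0.16 in that order, and the cytosolic medians 0.07 to 0.09, -0.01 to 0.03, -0.01 to 0.03, -0.10 to -0.06, -0.04 to 0.00 and 0.04 to 0.08. Of all genes, these fits called 9.83% to 18.2%, 19% to 27.8% and 2.91% to 8.79% in the first 3 comparisons of that order. In the last 3 they called 18.2% to 26.8%, 20.1% to 28.5% and 3.11% to 7.64%. The share of all genes called by the F-test is not given for any of these fits or settings. Leaving out an animal leaves 9 arrays, with fewer degrees of freedom.

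With the animal as a replicate block, the F-test called 13 cytosolic genes, and the cytosolic counts were 3 in Dlk1- Sca1+ against Dlk1+ Sca1+ and 13 in Dlk1- Sca1+ against reticular cells. The block gave 10 mitochondrial genes in Dlk1- Sca1+ against Dlk1+ Sca1+ and 20 in Dlk1+ Sca1+ against reticular cells. Over all genes, the block called 11.1% and 12.5% in these comparisons, in that order. In Dlk1- Sca1+ against reticular cells it called 24% of all genes. Of the calls on named genes it ended 0 and added 16.

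For the other settings the cause was not tested. Of 66 cytosolic genes, limma-trend called 16 by the F-test, 7 in Dlk1- Sca1+ against Dlk1+ Sca1+, 17 in Dlk1- Sca1+ against reticular and 18 in papillary against Dlk1- Sca1+ cells. Of all genes, it called 8.44%, 18.6% and 26.9% in these comparisons, in that order. Under this setting the cytosolic share was not below that of all genes there. With the mean over all probe sets of a gene the cytosolic counts were 13 by the F-test, 2 in Dlk1- Sca1+ against Dlk1+ Sca1+, 6 in papillary against Dlk1+ Sca1+ and 6 in papillary against reticular cells. The shares of all genes called in these comparisons were 8.08%, 29.5% and 29%. In Dlk1- Sca1+ against Dlk1+ Sca1+ cells the cytosolic counts were 1 with a minimum mean of 6, 2 with repeated quantile normalization and 1 without probe sets of the cross-matching kinds, which gave 4 in papillary against Dlk1+ Sca1+ cells. These settings called 12%, 8.09% and 7.23% of the genes they tested in the first comparison, and the last called 28% in the second. With only the 6 arrays compared, the count in Dlk1+ Sca1+ against reticular cells was 1 for the cytosolic and 1 for the mitochondrial class, and 2 mitochondrial genes were called in Dlk1- Sca1+ against Dlk1+ Sca1+ cells. Of all genes, 6.66% and 5.5% were called there, in that order. The mitochondrial count in Dlk1+ Sca1+ against reticular cells was 15 with centred arrays, 15 with repeated quantile normalization, 12 with a minimum mean of 6 and 8 with the mean over all probe sets. These are 20.5%, 20.5%, 16.9% and 11% of the class, beside 8.81%, 9.33%, 13.4% and 9.17% of all genes tested.

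Centred arrays gave mitochondrial medians of 0.36, 0.31 and 0.25 and cytosolic medians of 0.12, 0.058 and 0.05 in Dlk1- Sca1+, papillary and Dlk1+ Sca1+ cells against reticular cells. The mean over all probe sets gave mitochondrial medians of 0.27, 0.16 and 0.17. It turned the direction of 3 differences: Mrpl19 in Dlk1- Sca1+ against reticular cells was 0.0067 (limma adjusted p = 0.983), and Rpl11 was 0.45 in papillary against Dlk1+ Sca1+ cells (limma adjusted p = 0.00121) and 0.26 in papillary against reticular cells (limma adjusted p = 0.0396). Most cytosolic probe sets lie near the top of the scale and that of Mrpl15 near its lower end, where an array can understate a difference.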
